A study of Mus musculus with 4 samples.

Results

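The NRF2 antioxidant genes described here are 10 genes chosen by name: the transcription factor gene Nfe2l2, its inhibitor gene Keap1, and 8 target genes, namely Slc7a11, Gclc, Gclm, Srxn1, Txnrd1, Hmox1, Nqo1 and Osgin1. All 10 were found among the 24527 gene symbols of the count table, and all 10 had a mean of at least 1 CPM (reads of the gene per 1000000 reads of the library), as did 12728 genes in all. RNA of B16F10 cells, a mouse melanoma line, and of a tumor grown from them was sequenced from 4 sources with 1 library each. The study's methods give n = 3 for the RNA extraction, and whether a library holds RNA of several extractions is not given in the sources used here. In 2D monoculture the cells grew alone on a flat surface. In the 2D co-culture they shared it with NIH/3T3 mouse fibroblasts, and in the spheroid they grew with NIH/3T3 cells in hanging drops. The fourth source was the in vivo tumor, grown under the skin of year-old female C57BL/6 mice. The labels give the genotype WT for every library and no time of harvest.

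According to the study's methods, the cultured melanoma cells carried a green fluorescent protein and were sorted by it from the fibroblasts. The tumor cells are described as sorted too, whereas the label of that library names snap-frozen tumor. With 1 library per condition there was no replicate check, no p-value was computed, and a difference between libraries cannot be told apart from a difference between any 2 samples. Levels are CPM after scaling with TMM factors, which set the bulk of genes of the libraries to a common level. A gene was counted as higher or lower when it lay over 2-fold from the library it was compared with. Intervals are exact 95% intervals and cover counting error only.

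NRF2, the product of Nfe2l2, is held in the cytoplasm by KEAP1, which hands it to a CUL3 ubiquitin ligase for degradation. Oxidants and electrophiles modify cysteines of KEAP1, NRF2 then accumulates, pairs with a small MAF protein and binds antioxidant response elements near its target genes. The targets supply glutathione, reduce thioredoxin and peroxiredoxins, break down heme and detoxify quinones. NRF2 is regulated mainly at the level of protein, so the RNA of Nfe2l2 is not a measure of its activity. Slc7a11 is also a target of ATF4, the transcription factor of the amino acid and unfolded protein stress response, and Hmox1 is repressed by BACH1.

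A pair of sequence elements was looked for in the 250 bases before the annotated starts, because these are sites through which NRF2 and ATF4 act. The core of the antioxidant response element was searched as TGACNNNGC and the composite element of ATF4 and C/EBP proteins as TGATGNAA, both on either strand. RefSeq promoters (GRCm38.p6, the assembly also named mm10) were matched for 8 of the 10 members, with 10 starts in all. Hmox1 and Gclc had no matched promoter and were not searched. The first motif stood before 3 of these starts and before 10.2% of all 32851 starts, and the second before 1 of them and before 3.45% of all. No match of one motif overlapped a match of the other. The stretches are given 5′ to 3′ on the strand of the gene, with the matches in capitals. That of Nfe2l2 lies at chr2:75704855-75704913 on the minus strand, that of Gclm at chr3:122245383-122245471 on the plus strand, that of Txnrd1 at chr10:82859074-82859162 on the plus strand and that of Slc7a11 at chr3:50443614-50443719 on the minus strand. The annotated starts used for Txnrd1 and Slc7a11 lie inside the span of the gene, downstream of its outermost start.
Nfe2l2: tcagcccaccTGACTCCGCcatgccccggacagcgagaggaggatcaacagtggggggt
Gclm: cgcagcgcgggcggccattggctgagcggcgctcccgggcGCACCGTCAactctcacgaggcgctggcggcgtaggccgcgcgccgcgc
Txnrd1: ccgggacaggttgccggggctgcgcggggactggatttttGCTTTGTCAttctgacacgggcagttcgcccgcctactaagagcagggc
Slc7a11: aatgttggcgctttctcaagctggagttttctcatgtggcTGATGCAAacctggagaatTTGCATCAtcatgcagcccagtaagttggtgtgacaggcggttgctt
Slc7a11 held the ATF4 motif on both strands and Nfe2l2, Gclm and Txnrd1 held the antioxidant core once each. These are matches of letters and were not tested as binding sites. Bases further away and other spellings of the elements were not searched, so a start without a match is not shown to lack them.

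The deposited totals lay between 118896900 and 150028663 reads, and members had between 924 and 425205 reads in a library, so that counting error was at most 6.66% of a member's level. Melanocyte markers such as Tyrp1 were present in each library, with a sum over 8 genes of 16911 CPM in 2D monoculture, 15306 CPM in 2D co-culture, 11419.6 CPM in spheroid cells and 20122 CPM in tumor. The tumor library also held RNA of other cells: 12 myeloid markers summed to 2169 CPM there and to between 10.9 and 30.0 CPM in the cultures, 8 fibroblast markers to 2718 CPM, 6 endothelial markers to 244 CPM, 5 skeletal muscle markers to 4599 CPM and 3 adipocyte markers to 722 CPM. Lymphoid markers were scarce, with a sum of 7.37 CPM over 7 genes. The 6 erythroid markers summed to 12.5 CPM in tumor, of which Alas2 held 12.2 CPM, against at most 0.0873 CPM in a culture. The 4 globin genes among the 6 were at 0 in every library. The reason was not tested, and the sum is an incomplete measure of erythroid RNA. Xist, which female cells transcribe, reached 69.9 CPM in tumor but no more than 0.262 CPM in any culture. The fibroblast markers summed to 679 CPM in 2D co-culture, to 36.5 CPM in spheroid cells and to 17.6 CPM in 2D monoculture.

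Members differed in the library where they were highest, but 9 of the 10 were lowest in the tumor library. Levels peaked in spheroid cells for Hmox1, Gclm, Keap1 and Osgin1, in 2D co-culture for Txnrd1, Gclc and Nqo1, and in 2D monoculture for Slc7a11, Srxn1 and Nfe2l2. Nfe2l2 was the exception at the low end, with its lowest level in the 2D co-culture. In the order of levels, 29 of 30 pairs of neighbours were further apart than counting error, the exception being Nqo1 in the 2D cultures. The GC and length correction, described at the end, turned some of these orders. As log2 ratios, spheroid to 2D co-culture went from 0.24 to -0.36 for Keap1 and from 0.23 to -0.36 for Osgin1. Spheroid to 2D monoculture went from -0.84 to 0.51 for Slc7a11, and 2D co-culture to 2D monoculture from 0.003 to -0.24 for Nqo1. Corrected ratios of Nfe2l2 to 2D monoculture were -0.97 in tumor and -0.85 in 2D co-culture. Summed over the members, the levels came to 5449 CPM for the spheroid, 4208 CPM for 2D monoculture, 2729 CPM for 2D co-culture and 665 CPM for the tumor.

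**Figure D1:**
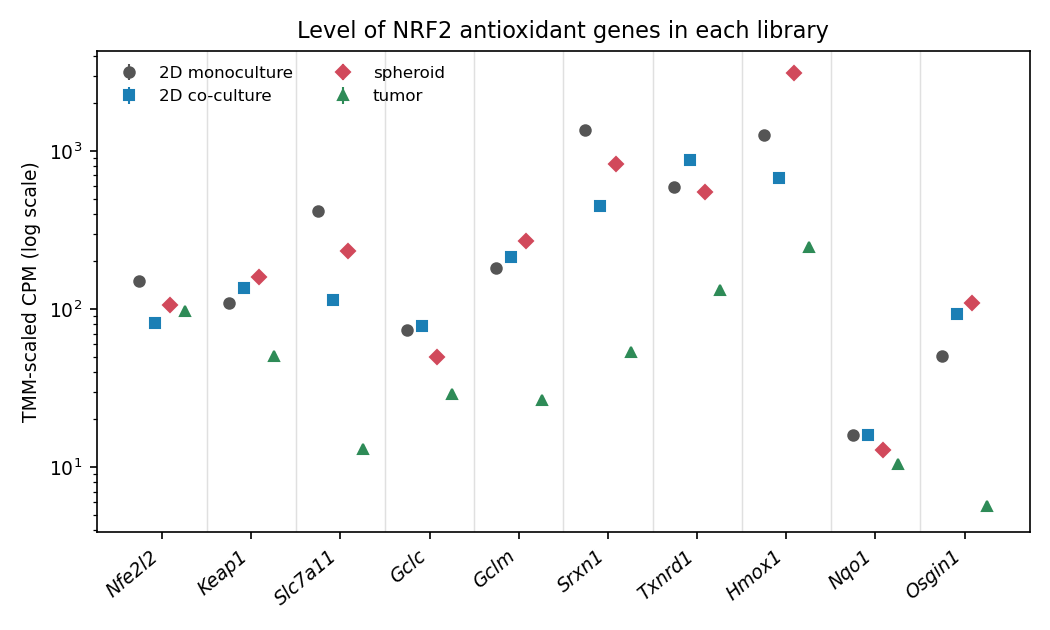
TMM-scaled CPM on a log axis for each of the 10 NRF2 antioxidant genes in each of the 4 libraries, with exact 95% counting intervals that are mostly smaller than the symbols. The tumor library (triangles) is lowest for every gene but Nfe2l2, and the spheroid stands out for Hmox1 at 3123 CPM.

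Of the regulators, Nfe2l2 (chr2:75675513-75704663) was lower and Keap1 (chr9:21229730-21239332) higher in both fibroblast-containing cultures than in 2D monoculture, each by less than 2-fold. Nfe2l2 stood at 151 CPM in 2D monoculture, at 81.4 CPM in 2D co-culture, at 106 CPM in spheroid cells and at 97.1 CPM in tumor. Keap1 stood at 109 CPM, 135 CPM, 159.7 CPM and 50.4 CPM in the same order. Between spheroid and 2D monoculture the log2 ratio was -0.52 (interval -0.55 to -0.48) for Nfe2l2 and 0.55 (interval 0.52 to 0.58) for Keap1. The ratio of Keap1 to Nfe2l2 reads per transcript length, a quantity that needs no scaling between libraries, was 0.494 in 2D monoculture, 1.14 in 2D co-culture, 1.04 in spheroid cells and 0.356 in tumor. The genes differ in GC content, at 58.0% for Keap1 and 46.8% for Nfe2l2. A correction for GC content and length, described at the end, moved the spheroid's log2 ratio to 2D monoculture to -0.07 for Keap1 and -0.23 for Nfe2l2. The log2 shift of the ratio between the genes against 2D monoculture went with it from 1.07 to 0.15 in the spheroid, from 1.20 to 1.08 in the 2D co-culture and from -0.48 to 0.79 in the tumor. The higher ratio of Keap1 to Nfe2l2 in the 2D co-culture was thus kept under the correction, whereas that of the spheroid nearly went and the direction in the tumor turned.

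The first step of glutathione synthesis needs cystine, which the antiporter subunit encoded by Slc7a11 (chr3:50364936-50499087) brings into the cell. Slc7a11 stood at 419.7 CPM in 2D monoculture, at 115 CPM in 2D co-culture, at 234 CPM in spheroid cells and at 12.9 CPM in tumor. It was highest in 2D monoculture and had the widest range of the members, 32.4-fold between the highest and the lowest library. The log2 ratio to 2D monoculture was -1.87 (interval -1.90 to -1.85) in the 2D co-culture, -0.84 (interval -0.86 to -0.82) in the spheroid and -5.02 (interval -5.08 to -4.96) in the tumor. Slc3a2, which encodes the heavy chain that SLC7A11 pairs with and that other amino acid transporters share, stood at 631 CPM in 2D monoculture, at 733 CPM in 2D co-culture, at 1504 CPM in spheroid cells and at 169 CPM in tumor. In the spheroid the antiporter's own subunit was therefore lower than in 2D monoculture, although at 0.51 after the correction for GC content and length, and its shared chain was over 2-fold higher.

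Glutamate-cysteine ligase, the rate-limiting enzyme of glutathione synthesis, consists of the catalytic subunit of Gclc (chr9:77754535-77794489) and the modifier subunit of Gclm (chr3:122245487-122267215). Gclc stood at 74.2 CPM in 2D monoculture, at 78.5 CPM in 2D co-culture, at 49.7 CPM in spheroid cells and at 28.8 CPM in tumor. Gclm had 181 CPM, 213 CPM, 271 CPM and 26.7 CPM in the same order. In the spheroid the subunits went apart, with a log2 ratio to 2D monoculture of -0.58 (interval -0.62 to -0.53) for Gclc, which became 0.10 after the correction, and 0.58 (interval 0.56 to 0.61) for Gclm, which became 1.96. Within libraries, Gclm reads per transcript length were 1.49 times those of Gclc in 2D monoculture, 1.66 times in 2D co-culture, 3.34 times in spheroid cells and 0.568 times in tumor. The modifier's RNA was the more abundant of both in every culture and the less abundant in the tumor. Gsr, the glutathione reductase, stood at 84.4 CPM in 2D monoculture, at 158 CPM in 2D co-culture, at 152 CPM in spheroid cells and at 34.9 CPM in tumor.

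**Figure D2:**
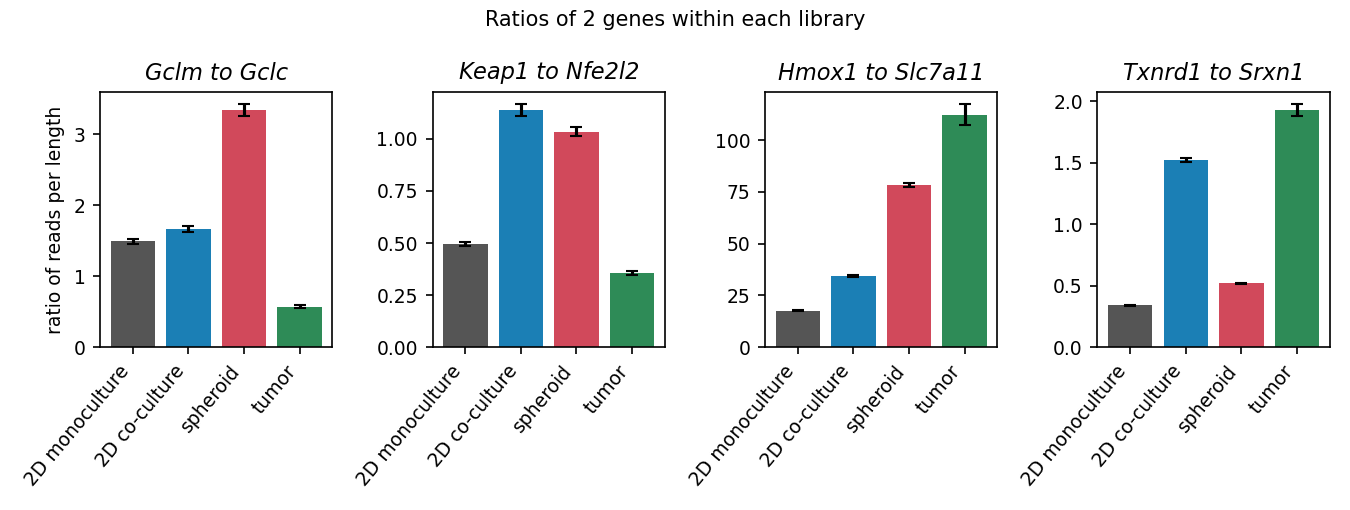
Ratios of reads per transcript length between 2 members within each library (vertical axes, linear and starting at 0), with exact 95% counting intervals; the lengths are those of the longest coding transcript. Gclm to Gclc is highest in the spheroid at 3.34, and Keap1 to Nfe2l2 is above 1 only for 2D co-culture and spheroid.

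In the thioredoxin branch, Srxn1 (chr2:152105524-152111376), the sulfiredoxin that repairs overoxidized peroxiredoxins, and Txnrd1 (chr10:82833951-82897724), the cytosolic thioredoxin reductase, differed in their order across libraries. Srxn1 stood at 1355 CPM in 2D monoculture, at 448 CPM in 2D co-culture, at 831 CPM in spheroid cells and at 53.2 CPM in tumor. Txnrd1 had 591 CPM, 878 CPM, 553 CPM and 132 CPM in the same order. Srxn1 thus followed the same order as Slc7a11, whereas Txnrd1 was highest in the 2D co-culture. The log2 ratio of the 2D co-culture to 2D monoculture was -1.60 (interval -1.61 to -1.58) for Srxn1 and 0.57 (interval 0.56 to 0.59) for Txnrd1. Prdx1, the peroxiredoxin with most reads, ranged from 872 CPM in 2D monoculture to 1288 CPM in 2D co-culture, with spheroid cells at 1231 CPM and tumor at 1153 CPM.

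Hmox1 (chr8:75093618-75100593), the inducible heme oxygenase that frees iron from heme, stood at 1261 CPM in 2D monoculture, at 670.2 CPM in 2D co-culture, at 3123 CPM in spheroid cells and at 247 CPM in tumor. The log2 ratio of the spheroid was 1.31 (interval 1.30 to 1.32) to 2D monoculture, 2.22 (interval 2.21 to 2.23) to the 2D co-culture and 3.66 (interval 3.64 to 3.67) to the tumor. In the 2D co-culture it was -0.91 (interval -0.92 to -0.90) against 2D monoculture, so the flat and the spheroid co-culture lay on either side of the monoculture. Per kilobase of transcript, Hmox1 had the highest level of the 10 members in each library, from 158 CPM per kilobase in tumor to 1990.1 CPM per kilobase in spheroid cells. The lowest level per kilobase was that of Nqo1 in the cultures and that of Slc7a11 in tumor, at 1.40 CPM per kilobase. Bach1, the gene of its repressor, stood at 38.3 CPM in 2D monoculture, at 29.5 CPM in 2D co-culture, at 14.8 CPM in spheroid cells and at 48.1 CPM in tumor. Between spheroid and 2D monoculture its log2 ratio stood at -1.37 before and -0.58 after the GC and length correction, and in the 2D co-culture both Bach1 and Hmox1 were lower than in 2D monoculture.

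Of 7 heme and iron genes, 5 were over 2-fold higher in the spheroid than in 2D monoculture and none was over 2-fold lower, where 16.4% of all genes were higher and 21.6% lower. After the GC and length correction 2 of the 7 stayed over 2-fold higher, both of them ferritin genes, where 15.2% of all genes were higher. The median log2 ratio was 1.41 before and 0.90 after the correction, against 0.10 over all genes tested. Besides Hmox1, the 5 genes were the ferritin chains Fth1 and Ftl1, which store iron, the biliverdin reductase Blvrb and the heme transporter Slc48a1. Fth1 stood at 3408 CPM in 2D monoculture, at 6346 CPM in 2D co-culture, at 12424 CPM in spheroid cells and at 1471 CPM in tumor. Ftl1 stood at 5958 CPM, 11532 CPM, 19613 CPM and 3582 CPM in the same order. Both ferritin genes have many processed copies in the genome, so reads may be shared with these and their levels are uncertain. In the 2D co-culture none of the 7 genes was over 2-fold from 2D monoculture, where 8.3% of all genes were higher and 12.7% lower. In the tumor 4 were lower, against 20.3% of all genes.

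Nqo1 (chr8:107388225-107403205), the quinone reductase often used as a marker of NRF2 activity, was low and nearly flat. It stood at 16.02 CPM in 2D monoculture, at 16.05 CPM in 2D co-culture, at 12.9 CPM in spheroid cells and at 10.4 CPM in tumor. The difference between the 2D cultures was within counting error, with a log2 ratio of 0.00 (0.0026, interval -0.09 to 0.09). Osgin1 (chr8:119425882-119446257), which is known for growth inhibition after oxidative stress, stood at 50.5 CPM in 2D monoculture, at 93.4 CPM in 2D co-culture, at 109.7 CPM in spheroid cells and at 5.69 CPM in tumor. Its log2 ratio to 2D monoculture was 0.89 (interval 0.84 to 0.93) in the 2D co-culture and 1.12 (interval 1.08 to 1.16) in the spheroid. Nqo1 had the narrowest range of the members, 1.54-fold from highest to lowest, and Osgin1 covered 19.3-fold.

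Counted over the 10 members, the spheroid had 2 that were over 2-fold higher than in 2D monoculture, Hmox1 and Osgin1, and none over 2-fold lower. With the GC and length correction both came within 2-fold, at 0.90 and 0.42, and Gclm passed it at 1.96. Of all 12728 genes tested, 16.4% were higher and 21.6% lower before the correction. After it, 15.2% of the 12246 genes with a corrected ratio were higher and 12.1% lower. The median log2 ratio of the members was -0.20, with 4 above 0 and 6 below. After the correction the median was 0.10, with 6 of the 10 above 0, so its sign turned. The members thus lay on both sides of 2D monoculture, with a share of higher genes near that of all genes and none past 2-fold on the lower side.

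In the 2D co-culture none of the members was over 2-fold higher than in 2D monoculture and 2 were lower, Srxn1 and Slc7a11, where 8.3% of all genes were higher and 12.7% lower. With the correction 3 were lower, the added one being Hmox1 at -1.11, where 9.62% of all genes were lower. The members' median log2 ratio was 0.04, with 6 above 0, and after the correction -0.006, with 5 above 0. The sum of fibroblast markers was higher in this library than in the other cultures, as given above, and the part of fibroblast RNA in these ratios was not tested. Between spheroid and 2D co-culture, both of which grew with NIH/3T3 cells, 2 members were over 2-fold higher in the spheroid, Hmox1 and Slc7a11, and none lower, against 12.4% and 13.1% of all genes. The log2 ratio of Slc7a11 was 1.03 (interval 1.003 to 1.06), at the edge of the 2-fold threshold, and with scaling by total counts it was 0.95.

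The tumor library had the most members past 2-fold. Compared with 2D monoculture, 8 of the 10 members were over 2-fold lower, none was higher, and all 10 had a ratio below 0. Among all genes tested, 20.3% were lower and 16.5% higher. The median log2 ratio was -2.26 for the members and -0.15 for all genes. The 2 members within 2-fold were Nfe2l2 at -0.64 (interval -0.67 to -0.61) and Nqo1 at -0.62 (interval -0.72 to -0.53).

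The widest differences of the tumor from 2D monoculture were those of Slc7a11 and of Srxn1, which was 25.5-fold lower at a log2 ratio of -4.67 (interval -4.70 to -4.64). Only 0.0629% of the genes tested had a lower ratio than Slc7a11 and 0.11% a lower one than Srxn1. Osgin1 followed at -3.15, Gclm at -2.76, Hmox1 at -2.35, Txnrd1 at -2.16, Gclc at -1.36 and Keap1 at -1.11 (interval -1.15 to -1.07). In a library of mixed tissue, fewer melanoma cells and less RNA of a gene per cell cannot be told apart. The melanocyte markers of the tumor library had a median log2 ratio to 2D monoculture of 0.35, with 6 of 8 above 0. Sox10, at -1.82, and Pmel, at -0.40, were below 0. After the GC and length correction the median was 0.14, with 5 of 8 above 0. The host markers are given above, and the part of host RNA in the members' ratios was not tested.

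Against the tumor, all 10 members were higher in the spheroid, 7 of them over 2-fold, where 28.4% of all genes were higher and 29.2% lower. The median log2 ratio was 2.71 for the members and 0.08 for all genes. Osgin1 had the highest ratio at 4.27 (interval 4.17 to 4.37), followed by Slc7a11 at 4.18 and Srxn1 at 3.97, and Nfe2l2 the lowest at 0.12 (interval 0.09 to 0.15). Nqo1, at 0.31, and Gclc, at 0.79, were the others within 2-fold. After the GC and length correction the order was Slc7a11 at 5.88, Gclm at 5.05, Srxn1 at 3.23, Hmox1 at 3.19 and Osgin1 at 2.69, while Keap1 went from 1.66 to 0.12 and Gclc passed 2-fold at 1.67. With scaling by total counts Nfe2l2 was at -0.24 and Nqo1 at -0.05, so for these genes the direction depends on the scaling. This comparison shares the tumor library with the previous one, so that both rest on the same tumor values.

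**Figure D3:**
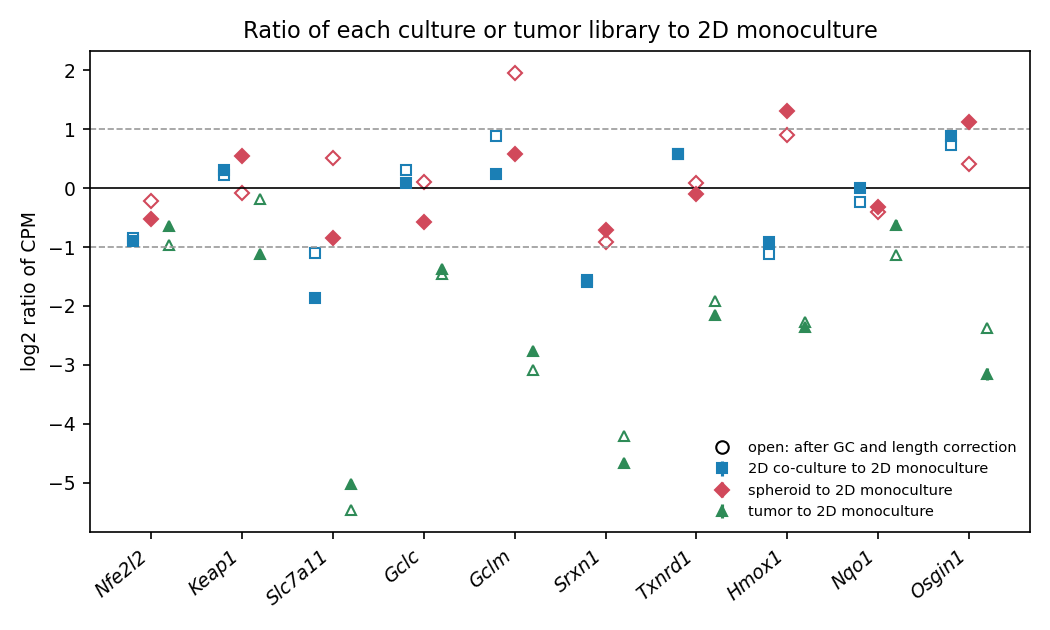
Log2 ratio of CPM to 2D monoculture for each member in the 2D co-culture (squares), the spheroid (diamonds) and the tumor (triangles), with exact 95% counting intervals; dashed lines mark 2-fold and open symbols the value after the GC and length correction. In the tumor 8 members lie below the lower line, and 2 members lie outside the lines in either of the other libraries.

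Outside the 10 members, 72 other genes of NRF2 regulation and of the antioxidant enzymes were followed, of which 67 had a mean of at least 1 CPM. Of these 67, 5 have a mean under 1 CPM when their highest library is left out, so that they entered through that library alone and their counts below are a description. Ptgr1, with no read in 2D monoculture, is counted as higher than there. In the spheroid 19 were over 2-fold higher than in 2D monoculture and 8 lower, where 16.4% and 21.6% of all genes were, with a median log2 ratio of 0.45. After the GC and length correction 17 of 66 were higher and 5 lower, where 15.2% and 12.1% of all genes were, and the median was 0.13. In the 2D co-culture 7 were higher and 4 lower, where 8.3% and 12.7% of all genes were, with a median of 0.14 (-0.002 after the correction). In the tumor 17 were higher and 21 lower, where 16.5% and 20.3% of all genes were, with a median of -0.13 (-0.47 after the correction). Against the tumor, 21 were over 2-fold higher in the spheroid and 14 lower, where 28.4% and 29.2% of all genes were, with a median of 0.48. When genes under a mean of 10 CPM were left out, the number over 2-fold higher in the tumor was 11 of 69 on the list with the members included.

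Among the other regulators, the small MAF partners of NRF2 were higher in the spheroid than in 2D monoculture: Mafg had 293 CPM against 100.5 CPM, Mafk 136 CPM against 80.7 CPM, and Maff 39.3 CPM against 5.78 CPM. Mafk lay within 2-fold, at a log2 ratio of 0.75 before and 0.12 after the GC and length correction. Sqstm1, whose product p62 binds KEAP1 and is itself an NRF2 target, stood at 4733 CPM in 2D monoculture, at 2792 CPM in 2D co-culture, at 7323 CPM in spheroid cells and at 701 CPM in tumor. Nfe2l1, the related factor that drives proteasome genes, stood at 512 CPM in 2D monoculture, at 441 CPM in 2D co-culture, at 1223 CPM in spheroid cells and at 219 CPM in tumor. Both had, as Hmox1 did, their highest level in the spheroid and their lowest in the tumor. With the GC and length correction, the log2 ratio of spheroid to 2D monoculture went from 0.63 to 0.20 for Sqstm1. For Nfe2l1 it went from 1.25 to 1.15.

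Of 19 enzymes that use glutathione, 16 had a mean of at least 1 CPM, but 4 of these reached it through 1 library alone, so no count is given for the group. Gstp1, the glutathione transferase with most reads, stood at 1171 CPM in 2D monoculture, at 1555 CPM in 2D co-culture, at 3549 CPM in spheroid cells and at 451 CPM in tumor, and may share reads with its near copy. Gpx1, the main cytosolic glutathione peroxidase, was near level in the cultures, between 121 CPM in 2D co-culture and 154 CPM in spheroid cells, and reached 516 CPM in tumor. Gpx3, a secreted plasma peroxidase, had 197 CPM in tumor and at most 1.57 CPM in a culture. The transferase genes Gsta1, Gsta2 and Gsta4 had 42.2 CPM, 6.94 CPM and 20.1 CPM in 2D monoculture. They had 251 CPM, 68.3 CPM and 101 CPM in spheroid cells, and 183 CPM, 43.7 CPM and 82.9 CPM in tumor. Each stayed over 2-fold higher in both after the GC and length correction. Over 2-fold lower than in 2D monoculture were Gstp1 and Gstm1 in the tumor and Gpx3 in the spheroid. The tumor library is also the one with the high host marker sums, and their part in the levels of these enzymes was not tested. The membrane-bound transferase gene Mgst3 was higher than in 2D monoculture, where it had 13.6 CPM, in each other library, with 29.4 CPM in 2D co-culture, 67.5 CPM in spheroid cells and 29.2 CPM in tumor.

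Of 11 thioredoxin and peroxiredoxin genes, none lay over 2-fold from 2D monoculture in spheroid cells, where 16.4% of all genes were higher and 21.6% lower. Prdx1 passed 2-fold at 1.19 after the GC and length correction. Srxn1, on the lower side, was the single one past 2-fold in 2D co-culture, where 8.3% of all genes were higher and 12.7% lower. In the tumor 4 of the 11 were lower and 1 was higher, against 20.3% and 16.5% of all genes. Of 6 genes that supply NADPH, G6pdx, the first enzyme of the pentose phosphate pathway, stood at 361 CPM in 2D monoculture, at 163 CPM in 2D co-culture, at 131 CPM in spheroid cells and at 90.4 CPM in tumor. It was over 2-fold lower than in 2D monoculture in all the other libraries. Pgd, the next dehydrogenase of that pathway, had 479.7 CPM, 608 CPM, 460.3 CPM and 173 CPM in the same order of libraries. Of the quinone and aldehyde enzymes, Ephx1, the microsomal epoxide hydrolase and the most abundant, stood at 345 CPM in 2D monoculture, at 282 CPM in 2D co-culture, at 487 CPM in spheroid cells and at 68.9 CPM in tumor. Aox1, an aldehyde oxidase, was highest in 2D monoculture at 38.4 CPM and had between 9.76 CPM and 16.8 CPM in the other libraries. Abcc1, an exporter of glutathione conjugates, had 122 CPM in 2D monoculture and 73.8 CPM in spheroid cells, a log2 ratio of -0.72 that turned to 0.47 with the GC and length correction. Sod1, the cytosolic superoxide dismutase, had 272 CPM and 451 CPM in these libraries, a log2 ratio of 0.73 that went to 0.14 with the correction.

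**Figure D4:**
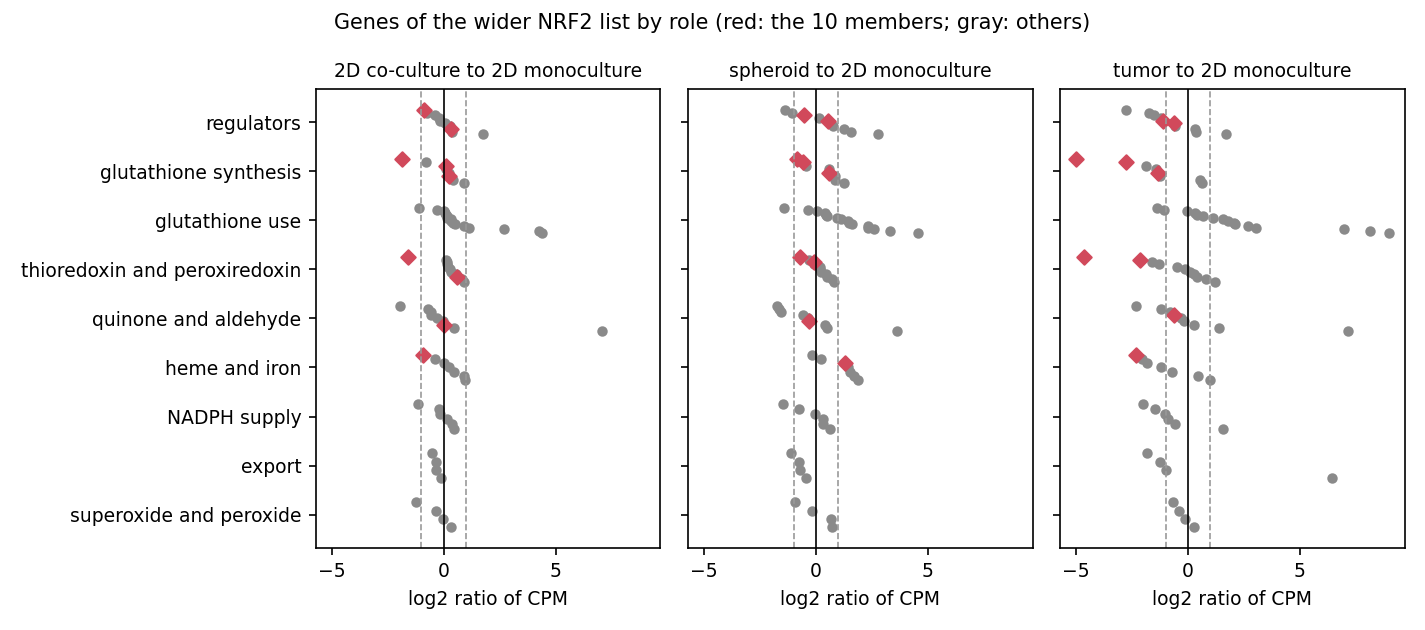
Log2 ratio of CPM to 2D monoculture for genes of the wider list with a mean of at least 1 CPM, by role (rows), in the 2D co-culture, the spheroid and the tumor (panels). Dashed lines mark 2-fold and red diamonds are members. The member Osgin1, the only gene of its role, is not drawn, nor is a gene without reads in 2D monoculture. In the tumor panel the members drawn lie to the left of 0, with Slc7a11 at -5.02, while the other genes lie on both sides.

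Since Slc7a11 answers to ATF4 as well, 8 genes of the ATF4 response were set beside the members. In the spheroid 5 of the 8 were over 2-fold higher than in 2D monoculture and all 8 lay above 0, where 16.4% of all genes were over 2-fold higher. The median log2 ratio was 1.79. After the GC and length correction 4 were over 2-fold higher, against 15.2% of all genes. Then 7 were above 0, with Ddit3 at 0.99 and Atf3 at -0.13, and the median was 1.21. Atf4 stood at 671 CPM in 2D monoculture, at 1229 CPM in 2D co-culture, at 2713 CPM in spheroid cells and at 407 CPM in tumor. Trib3 had 191 CPM, 163 CPM, 1279 CPM and 34.5 CPM in the same order. Log2 ratios of spheroid to 2D monoculture were 2.03 for Chac1, which degrades glutathione, 2.03 for Ppp1r15a, 1.57 for Ddit3, 0.85 for Sesn2, 0.82 for Asns and 0.17 for Atf3. After the correction Chac1 was at 1.44, Ppp1r15a at 1.54, Sesn2 at 0.19 and Asns at 0.92. Slc7a11, at -0.84 before and 0.51 after the correction, was below 0 without it, where the 8 ATF4 genes were above 0. Against the 2D co-culture, the spheroid had 7 of the 8 ATF4 genes over 2-fold higher, against 12.4% of all genes. After the correction 5 were, against 9.54% of all genes. The median before the correction was 2.00 (1.996), with Slc7a11 at 1.03. In the tumor all 8 were below 0 against 2D monoculture, 6 by over 2-fold, against 20.3% of all genes, with a median of -2.17.

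The ratios between these libraries followed the base composition of the transcripts, and members differed widely in it. Across genes, Spearman's correlation of the log2 ratio with GC content was 0.466 for spheroid to 2D monoculture, 0.20 for 2D co-culture to 2D monoculture and -0.387 for tumor to 2D monoculture and 0.54 for spheroid to tumor, over at least 12246 genes that share these libraries. Slc7a11 had 40.7% GC and Gclm 42.1%, at the percentiles 6.73 and 10.8 of the genes tested, whereas Keap1 had 58.0% and Osgin1 60.0%, at the percentiles 89.1 and 95.3. A correction was made by taking away the median ratio of genes of like GC content and length. It moved the spheroid's log2 ratio to 2D monoculture from -0.84 to 0.51 for Slc7a11, from -0.58 to 0.10 for Gclc, from 0.58 to 1.96 for Gclm, from 1.31 to 0.90 for Hmox1 and from 1.12 to 0.42 for Osgin1. With it, Gclm was the single member over 2-fold higher in the spheroid. Slc7a11 and Gclm also had the longest transcripts of the members, at 9223 and 5589 bases. The parts of GC content and of length in these shifts were not told apart.

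In the tumor no member changed direction with the correction. All 10 members were still below 0 against 2D monoculture, with a median log2 ratio of -2.10, -5.47 for Slc7a11 and -4.22 for Srxn1. Keap1 came within 2-fold at -0.19 (-0.185), and Nqo1 went past it at -1.13. Against the 2D co-culture, Hmox1 in the spheroid was at 1.97 and Slc7a11 at 1.35. In the 2D co-culture, Srxn1 was at -1.56 and Slc7a11 at -1.10 against 2D monoculture.

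**Figure D5:**
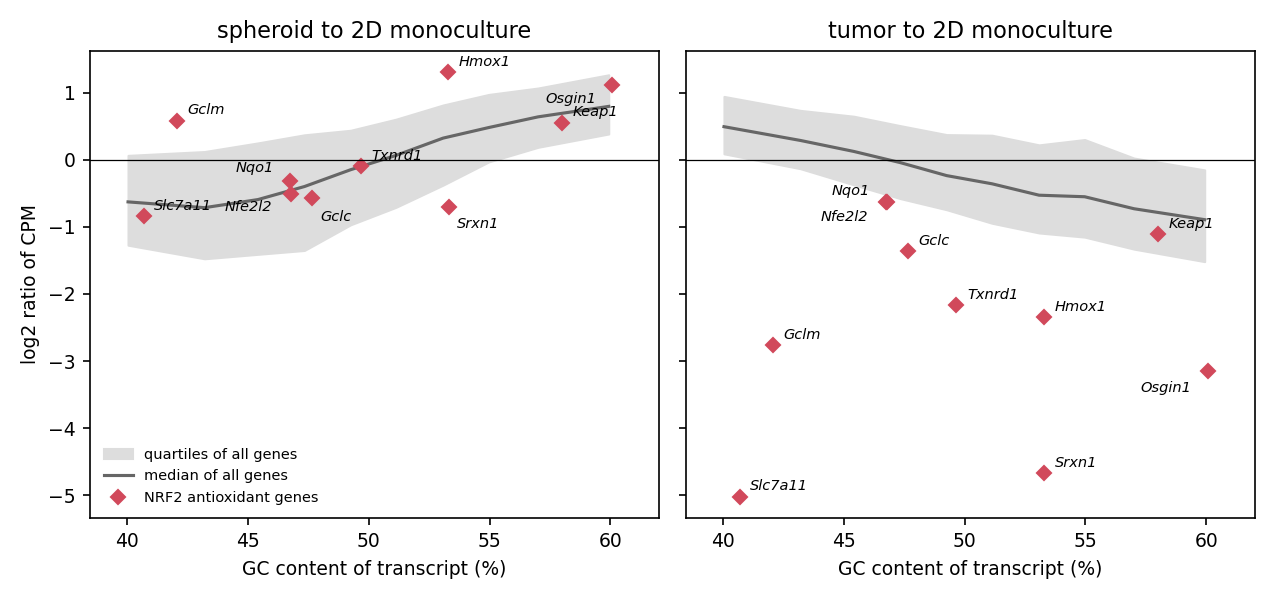
Log2 ratio of CPM against the GC content of the transcript (percent) for the 10 members (diamonds), with the median and quartiles of all genes in 10 classes of GC content (line and band), for spheroid and for tumor to 2D monoculture. In the spheroid panel Gclm and Hmox1 lie above the band and Srxn1 below it, and in the tumor panel the targets other than Nqo1 lie well below it.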

How the data were processed

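The authors deposited 1 table of whole-number read counts per gene symbol for 4 libraries, without normalization. The submitters' processing notes name Trimmomatic, STAR, featureCounts and the build mm10, without versions. The strand setting is not given in the sources used here. Libraries came from poly(A)-selected RNA.

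CPM used TMM factors (edgeR 4.0.16, R 4.3.3), between 0.908 in the spheroid and 1.16 in the tumor. DESeq2 1.42.0 size factors, total counts and upper quartile factors were alternatives, as were other filters, a pseudocount of 1 CPM, a 1.5-fold threshold and a correction by 10 classes of GC content by 10 of length (GENCODE M21, longest coding transcript, found for 97.9% of the genes tested). Log2 ratios carry no pseudocount. Python 3.11.15 and scipy 1.17.1 gave exact binomial intervals. Ratios and intervals were tested on simulated counts for spheroid to 2D monoculture, without a trend with GC content or length. The GC and length correction and the motif search were not tested in this way. NOISeq and GFOLD, named in the methods, were not run.

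The genes of the wider list named are the one with most reads in each role and those averaging at least 10 CPM that passed 2-fold in spheroid and 2D co-culture alike or between spheroid and tumor. A part of these is described, beside every ATF4 gene. Gsta1, Gsta2 and Gsta4 were added outside this rule. Members, lists and thresholds were chosen with earlier results of these data known.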

Additional observations from a re-analysis of the deposited data

How the results depend on the processing

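No paired analysis was possible because there is a single library of every condition. Numbers of genes and medians were taken as unchanged within 1.5-fold. Scaling shifted the median log2 ratio of all genes between spheroid and tumor from 0.08 to -0.29 with total counts, and that between tumor and 2D monoculture from -0.15 to 0.10 with total counts and with upper quartiles. The share of higher genes among those over 2-fold then went from 44.8% to 60.1% (total counts) and 60.4% (upper quartiles) for tumor to 2D monoculture, and from 49.4% to 36.7% (total counts) for spheroid to tumor. All 21 member ratios over 2-fold kept their sign in the 7 settings that change ratios or filters, and 16 stayed over 2-fold in each. Of all 50 pairs of member and comparison, 41 kept their sign in every setting and 40 stayed on the same side of 2-fold. The medians of the members stayed within 1.5-fold in every setting. Those of spheroid and of 2D co-culture to 2D monoculture, both near 0, changed sign with the GC and length correction.

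With total counts, members higher in the spheroid than in the 2D co-culture went from 2 to 1. With upper quartiles, members higher in the 2D co-culture than in 2D monoculture went from 0 to 1 and genes of the wider list from 7 to 13. With a mean of at least 10 CPM, the wider list had 2 genes higher in the 2D co-culture, 11 in the tumor against 2D monoculture (17 before) and 7 lower in spheroid than tumor (14 before), since fewer genes were tested. With 1.5-fold, members lower in the spheroid than in 2D monoculture were 2, those in the 2D co-culture 1 higher and 4 lower, and those lower in the spheroid than in the 2D co-culture 2, while the wider list had 14 lower in the spheroid and 14 higher and 12 lower in the 2D co-culture. With the GC and length correction, members higher in the spheroid than in 2D monoculture went from 2 to 1 and genes of the wider list lower from 8 to 5. Keap1 in the tumor was within 2-fold of 2D monoculture with total counts, upper quartiles and the correction. Where a count moved for another reason than fewer genes or another threshold, the cause was not tested.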
